A study of Mus musculus with 2 samples.

Results

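A set of 10 transcription factor genes of the alveolar type 2 (AT2) cell lineage of the lung, Nkx2-1, Cebpa, Etv5, Foxa1, Foxa2, Gata6, Klf5, Elf3, Elf5 and Tfcp2l1, was followed across single AT2 cells of 2 libraries. The genes were chosen by symbol, and all 10 were found among the 27998 genes of the deposited count matrices. The cells came from lungs of male mice and were sorted by flow cytometry on EpCAM, with cells carrying CD31, CD34, CD45, CD24 or Sca-1 excluded. One library is labelled WT and the other IP-/- (IPKO), that is, without the prostaglandin I2 receptor. The labels give no age, strain, allele, injury or treatment, and they do not say how many mice each library came from. Each genotype has a single library and hence no replicate, so no difference was tested, and the 95% intervals given cover counting error alone.

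AT2 cells make pulmonary surfactant and renew the alveolar lining. Nkx2-1 is the homeodomain factor that sets lung epithelial identity and binds surfactant gene promoters, the forkhead factors Foxa1 and Foxa2 act beside it, and Gata6 is a zinc finger factor of lung endoderm. Cebpa, a leucine zipper factor, and Etv5, an ETS factor downstream of FGF and ERK signalling, are required for the mature AT2 state. Klf5 is a Krüppel-like factor that influences the choice between the AT2 and the alveolar type 1 (AT1) fate, Elf3 and Elf5 are epithelial ETS factors, and Tfcp2l1 is a Grainyhead-family factor that marks AT2 cells.

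An AT2 cell was taken here as a barcode with at least 500 genes, up to 20% mitochondrial UMIs and at least 10% of its UMIs from Sftpc, the surfactant protein C gene. UMIs are the molecular tags that count each captured transcript once, near its 3' end. This rule gave 6422 of 8924 barcodes in the library labelled WT and 7465 of 10014 in the library labelled IPKO. Together the AT2 cells carried 121793321 UMIs labelled WT and 131064361 labelled IPKO, at a median of 18307 and 17061 per cell. Few cells lay near the Sftpc limit, with 28 and 54 kept cells between 9% and 10% and 35 and 41 cells between 10% and 11%. Each of the 12 AT2 marker genes, Etv5 among them, was detected in at least 98.5% and 97.5% of these cells. The summed level of 8 immune markers in them was 97.3 and 106 UMIs per 1000000 UMIs (CPM), and that of 10 endothelial markers was 13.5 and 18.3 CPM. Club cell genes (5 genes, mostly Scgb1a1 and Hp) summed to 2183 CPM labelled WT and 1105 CPM labelled IPKO in the AT2 cells. The libraries share 79 barcodes, of which 12 are AT2 cells in both. They differed in early-response genes (Fos, Jun, Egr1 and others), whose median share of a cell's UMIs was 0.246% labelled WT and 0.571% labelled IPKO, and in mitochondrial share (5.24% and 3.91%).

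Ptgir, the gene of the prostaglandin I2 receptor, went against the labels. It had 0 UMIs in the AT2 cells labelled WT, which allows a level of up to 0.0246 CPM at a floor of 3 counts. In the library labelled IPKO it had 314 UMIs in 299 cells (4.01%, exact interval 3.57% to 4.48%), or 2.40 CPM. A 3' tag outside a deleted part of a gene checks nothing. Every direction below is thus one between libraries, called by their labels, and none is a direction between genotypes.

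The genes that differed most between the libraries were Tfcp2l1, Elf3 and Elf5, and the sequence just upstream of their transcription starts is shown for that reason. It was taken from the RefSeq promoter table (GRCm38.p6), which holds 12 promoters of 8 of the 10 genes (not Gata6 and Klf5), and each stretch ends before the next exon base of that gene in GENCODE. Tfcp2l1 lies on the plus strand of chromosome 1 (chr1:118627695-118627944). Elf3 lies on the minus strand of chromosome 1 (chr1:135258569-135258722). Elf5 lies on the plus strand of chromosome 2, and the downstream of its starts in that table is shown (chr2:103423818-103424061), which lies inside the annotated gene, upstream of the first exon of another of its transcripts. Capitals mark the letters CAAGTG, which NKX2 proteins prefer, and the TATA box TATAAA.
Tfcp2l1: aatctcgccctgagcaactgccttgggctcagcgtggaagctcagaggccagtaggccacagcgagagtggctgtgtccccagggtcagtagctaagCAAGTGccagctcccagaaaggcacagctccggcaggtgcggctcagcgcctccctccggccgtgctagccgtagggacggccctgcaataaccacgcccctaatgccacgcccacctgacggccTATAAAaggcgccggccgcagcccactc
Elf3: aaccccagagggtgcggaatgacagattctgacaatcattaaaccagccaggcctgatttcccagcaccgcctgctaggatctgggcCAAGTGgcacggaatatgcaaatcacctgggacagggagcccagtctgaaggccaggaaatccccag
Elf5: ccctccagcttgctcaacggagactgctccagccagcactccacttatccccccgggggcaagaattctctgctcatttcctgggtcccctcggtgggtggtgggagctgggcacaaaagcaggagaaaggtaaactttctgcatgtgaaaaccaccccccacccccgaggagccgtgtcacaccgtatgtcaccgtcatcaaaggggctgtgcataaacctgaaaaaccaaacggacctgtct

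Distances are counted from the RefSeq starts. Of the 250 bases upstream of that start, only the first 154 are printed for Elf3 and 244 for Elf5, because a GENCODE exon base follows. CAAGTG begins 153 bases before the start of Tfcp2l1 and 163 bases before that of Elf3. On either strand it occurred in the 300-base promoters of no other of the 8 genes, and in 13.6% of all 32851 promoters of the table. TATAAA on the coding strand begins 28 bases before the start of Tfcp2l1, and it was also in the promoter of Cebpa; 8.32% of all promoters hold it. The FOXA letters TGTTTAC, on either strand, were in the promoters of Etv5 and Foxa1 (3.65% of all promoters), and the ETS letters CCGGAA in 1 of those of Foxa2 (14.9%). The AP-1 letters TGANTCA (7.81% of all promoters) and the cAMP response letters TGACGTCA (1.79%) were in none of the 12 windows. These matches describe letters and show no binding.

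Etv5 and Nkx2-1 were the most abundant of the factors in AT2 cells. Because each transcript is counted once by its 3' end, levels were not divided by gene length, although how well a 3' end is captured can differ between genes. Etv5 stood at 354 CPM (350 to 357) in the library labelled WT and 341 CPM (338 to 345) in the library labelled IPKO. Nkx2-1 stood at 314 CPM (311 to 317) and 369 CPM (366 to 373). Both were near-universal, since a UMI of Etv5 was seen in 98.5% and 97.5% of AT2 cells and one of Nkx2-1 in 98.7% and 98.8%. Cebpa followed at 192 CPM (189 to 194) and 176 CPM (174 to 178), in 93.1% and 89.8% of cells. Their typical cell held 6 and 5 UMIs of Etv5, 5 and 6 of Nkx2-1 and 3 in each library of Cebpa (medians).

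The other 7 genes had medians of 0 to 2 UMIs per cell. Tfcp2l1 had 125 CPM (123 to 127) labelled WT and 86.6 CPM (85.0 to 88.2) labelled IPKO. Foxa2 had 84.2 CPM (82.6 to 85.8) and 102 CPM (101 to 104). These intervals do not overlap, so the order of this pair differed: Tfcp2l1 was the fourth gene labelled WT and the fifth labelled IPKO. Gata6 was at 58.5 CPM (57.1 to 59.8) and 60.9 CPM (59.6 to 62.3), and Foxa1 at 51.7 CPM (50.4 to 53.0) and 60.2 CPM (58.9 to 61.5). Gata6 lay above Foxa1 in the library labelled WT, while in the library labelled IPKO their intervals overlap. Elf3, Klf5 and Elf5 closed the order labelled WT at 49.3 CPM (48.1 to 50.5), 47.1 CPM (45.9 to 48.3) and 32.6 CPM (31.6 to 33.6), where the interval of Elf3 overlaps those of Foxa1 and of Klf5. Labelled IPKO, Klf5 at 46.7 CPM (45.6 to 47.9) and Elf5 at 44.8 CPM (43.6 to 45.9) overlapped, and Elf3 was last at 35.3 CPM (34.3 to 36.3).

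**Figure D1:**
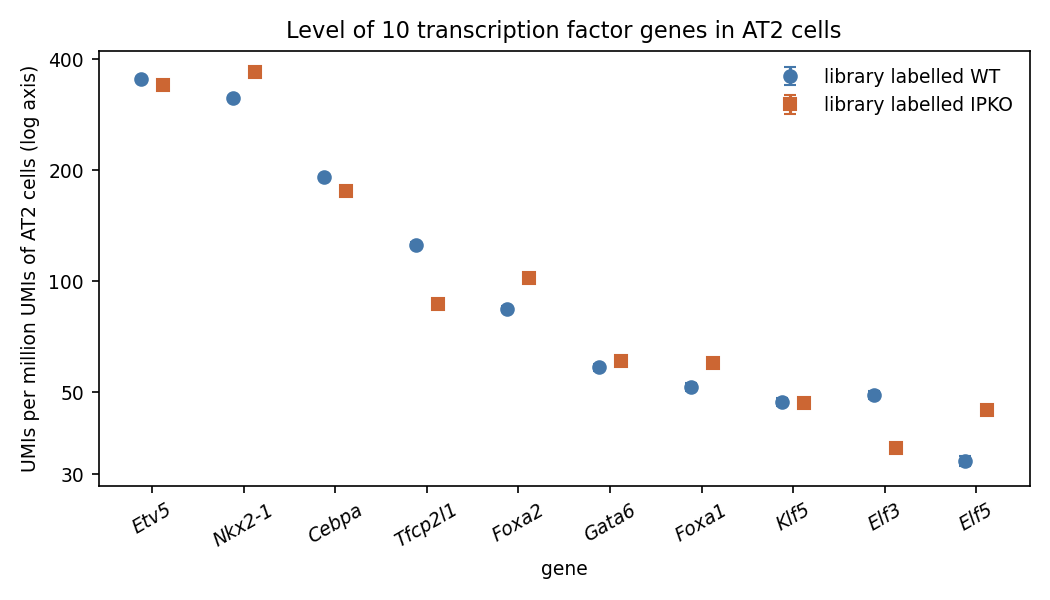
Level of each of the 10 factor genes in AT2 cells, as UMIs per 1000000 UMIs on a log axis, labelled WT as circles and labelled IPKO as squares, with exact Poisson 95% intervals that are mostly smaller than the symbols. Etv5, Nkx2-1 and Cebpa lie highest in both libraries, and Tfcp2l1 and Elf3 sit lower and Elf5 higher in the library labelled IPKO.

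The share of cells with a UMI depended on depth. At full depth, Tfcp2l1 was seen in 83.2% and 70.8% of AT2 cells, Foxa2 in 73.7% and 76.4%, Gata6 in 61.2% and 60.7%, Foxa1 in 58.3% and 60.9%, Elf3 in 56.6% and 43.0%, Klf5 in 54.9% and 52.0%, and Elf5 in 40.0% and 47.6%. When each cell of at least 5000 UMIs was thinned to 5000 (6392 and 7380 cells, leaving out 30 and 85), Etv5 was seen in 78.8% and 78.4%, Nkx2-1 in 77.4% and 82.2%, Cebpa in 59.7% and 56.1%, Tfcp2l1 in 43.8% and 34.2%, and Elf5 in 14.5% and 19.1%. The median AT2 cell held a UMI of 7 of the 10 genes at full depth in each library and of 4 after thinning. All 10 were seen together in 4.20% and 3.31% of cells, and none of them in 3 and 5 cells.

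Spread between cells in the thinned counts was near that of counting for most of the factors. At means as low as 0.16 UMIs per cell labelled WT (Elf5) and 0.18 labelled IPKO (Elf3), this spread says little on how levels varied. The variance of the thinned counts divided by their mean, which is 1 for pure counting error, was highest for Etv5 (1.279 labelled WT and 1.252 labelled IPKO). Tfcp2l1 was at 1.251 and 1.142, Cebpa at 1.13 and 1.16, and Nkx2-1 at 1.11 and 1.16, so that Tfcp2l1 came second labelled WT and below Nkx2-1 and Cebpa labelled IPKO. Elf3 was at 1.05 and 1.01. Over all genes compared the median was 1.04 in each library, and 90% of genes lay below 1.18 and 1.17, so Etv5 was above that limit in both libraries and Tfcp2l1 in the library labelled WT. Every factor labelled WT lay above the median of all genes, and so did every factor labelled IPKO except Klf5 and Elf3. The genes compared were not matched for level, and Etv5 and Tfcp2l1 are among the more abundant factors. Whether the factors differed in this ratio from genes of similar level was not tested.

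Between the libraries, Elf5 was higher and Tfcp2l1 and Elf3 were lower in the library labelled IPKO by at least 0.32 on the log2 scale. The other 7 genes stayed within that difference. Among the 8500 genes of at least 5 CPM, 8.4% were that much higher and 4.74% that much lower, so 1 of 10 factor genes higher is near this background, and 2 of 10 lower is a count too small to set against it. The median log2 ratio of the 10 genes was 0.02, beside 0.06 over all genes. The split over all genes depended on scaling: it was 714 higher and 403 lower by total UMIs and 448 higher and 577 lower with median-of-ratios factors. Of the factor genes, Elf5, Elf3 and Tfcp2l1 were counted under both.

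Tfcp2l1 had 15279 UMIs labelled WT and 11347 labelled IPKO. Its log2 ratio (IPKO over WT) was -0.54 (-0.57 to -0.50), and 1.82% of all genes had a lower ratio. Cells with none of its UMIs made up 16.8% and 29.2%, and cells with 5 or more 13.8% and 4.96%. The whole distribution over cells was therefore lower in the library labelled IPKO, not a few cells of high count.

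Elf3 had 6003 and 4621 UMIs, a log2 ratio of -0.48 (-0.54 to -0.43), and 2.14% of all genes were lower. Its neighbour in the genome, Rnpep, an aminopeptidase gene 4.14 kb away on the same strand, had a log2 ratio of 0.06 (0.01 to 0.11). Elf5 had 3970 and 5867 UMIs, a log2 ratio of 0.46 (0.40 to 0.52), and 96.8% of all genes were lower. Cat, the catalase gene 2.86 kb from Elf5 on the opposite strand, had a log2 ratio of -0.23 (-0.24 to -0.21), in the other direction. Elf3 and Elf5, related ETS factors, thus differed in opposite directions, and Elf3 was above Elf5 in the library labelled WT and below it in the library labelled IPKO.

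The lineage factors of lung endoderm had smaller differences. Foxa2 had a log2 ratio of 0.28 (0.24 to 0.32), Nkx2-1 of 0.23 (0.22 to 0.25) and Foxa1 of 0.22 (0.17 to 0.27), while Gata6 was at 0.06 (0.01 to 0.11). The first 3 of these stayed higher under each scaling tried, and Gata6 changed sign with median-of-ratios factors. Cebpa and Etv5, the mature AT2 factors, were at -0.13 (-0.15 to -0.10) and -0.05 (-0.07 to -0.03; -0.11 with median-of-ratios factors), and Klf5 at -0.01 (-0.06 to 0.04). For comparison, none of 8 surfactant genes differed by 0.32, and their median log2 ratio was -0.14. Gm26973, annotated antisense to Nkx2-1, had 76 and 137 UMIs (log2 ratio 0.74, 0.33 to 1.17), and 1010001N08Rik, opposite to Gata6, had 147 and 116 (-0.45, -0.81 to -0.09). Both are far below their partner genes in counts, and reads of the overlaps could be split between partners in ways that were not tested.

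Because the early-response share differed between the libraries, ratios were also taken within 4 ranges of that share, common to both. The log2 ratio of Tfcp2l1 was between -0.55 and -0.73 in them, that of Elf3 between -0.39 and -0.66, and that of Elf5 between 0.27 and 0.39. Each of these 3 differences was therefore present in every range, with Elf5 under 0.32 in the highest. Foxa2 had a mean of 0.14 over the ranges, Foxa1 of 0.07, Nkx2-1 of 0.16, Gata6 of -0.13, Klf5 of -0.20, Cebpa of -0.22 and Etv5 of -0.13, all below their values over all AT2 cells. The median over all genes was lower too, at 0.004 beside 0.06. Less that median, Nkx2-1 went from 0.17 to 0.16, Cebpa from -0.19 to -0.22 and Etv5 from -0.11 to -0.14. Foxa2 went from 0.22 to 0.13, Foxa1 from 0.16 to 0.07, Gata6 from -0.0004 to -0.13 and Klf5 from -0.07 to -0.20. Within 4 common ranges of mitochondrial share, Tfcp2l1 was between -0.46 and -0.55, Elf3 between -0.47 and -0.58, and Elf5 between 0.25 and 0.47, with the 0.25 in the highest range. Without the 25% of AT2 cells of highest club-gene share, a choice made after seeing the data, Tfcp2l1 was at -0.59, Elf3 at -0.47 and Elf5 at 0.45, while club genes remained at 1260 and 716 CPM in the cells left.

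**Figure D2:**
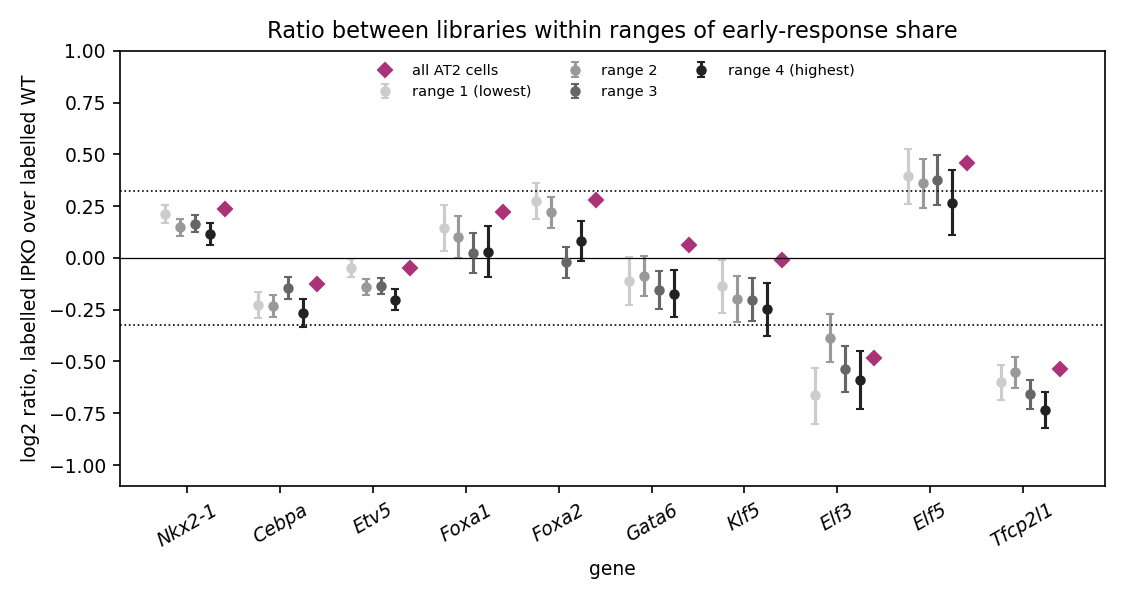
Log2 ratio (labelled IPKO over labelled WT) for each factor gene, in AT2 cells of 4 common ranges of early-response share (grey to black points with 95% counting intervals) and in all AT2 cells (diamonds), with dotted lines at 0.32 above and below 0. Tfcp2l1 and Elf3 lie below and Elf5 above 0 in every range, while Gata6 and Klf5 lie lower within ranges than over all cells.

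The early-response share also divided the factors within each library. In quartiles of AT2 cells by that share, Gata6 went from 46.2 CPM in the lowest quartile to 72.7 CPM in the highest in the library labelled WT, and from 50.1 to 70.8 CPM labelled IPKO. Its log2 ratios were 0.66 (0.56 to 0.75) and 0.50 (0.41 to 0.59). Foxa2 was 0.57 and 0.33, Klf5 0.55 and 0.46, and Foxa1 0.48 and 0.38. Over all 4246 genes of at least 20 CPM the median of this log2 ratio was 0.13 and 0.11, and 90% of genes were below 0.36 and 0.32, so these 4 genes lay above that limit in both libraries. Elf3 differed least of the factors, at 0.07 (-0.03 to 0.18) and 0.10 (-0.02 to 0.23), intervals that include 0. Nkx2-1 was at 0.19 and 0.22, Cebpa at 0.21 and 0.25, Etv5 at 0.26 and 0.15, Elf5 at 0.30 and 0.27, and Tfcp2l1 at 0.35 and 0.21.

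**Figure D3:**
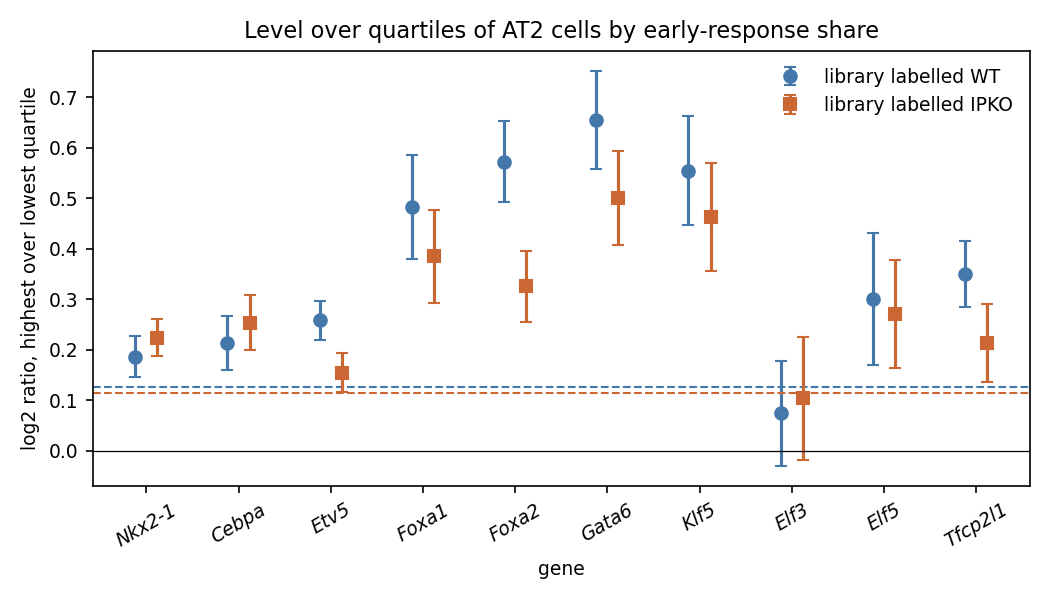
Log2 ratio of each factor gene between the quartile of AT2 cells with the highest and that with the lowest early-response share, per library, with 95% counting intervals; dashed lines are the medians of all genes (0.13 labelled WT, 0.11 labelled IPKO). Gata6, Foxa2, Klf5 and Foxa1 lie highest and Elf3 lies near the median.

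Across AT2 cells thinned to 5000 UMIs, the factors went with surfactant genes only weakly, and the size of r depended on that depth. Correlations are Pearson's r of log2(UMIs + 1) over cells thinned to 5000 UMIs, within each library, so that the points share 1 library and 1 depth. They are given as a description, and in counts this sparse a value near 0 says little. The largest of the 80 values per library was that of Etv5 with Slc34a2, the phosphate transporter gene of AT2 cells, with r of 0.11 labelled WT and 0.15 labelled IPKO. Etv5 also had the highest values of any factor with Lamp3, a lamellar body membrane gene (0.08 and 0.11), with Abca3, the lipid transporter of lamellar bodies (0.07 and 0.08), and with Sftpb, surfactant protein B (0.09 and 0.05). Pairs of surfactant genes had a wider range of r, highest for Sftpa1 with Sftpd (0.42 and 0.39). Sftpb with Sftpa1 was at -0.01 and 0.01, and Sftpc with Lamp3 at -0.27 and -0.26. These sizes are not directly comparable with those of the factors. Sftpa1 and Sftpd had thinned means of 128 and 23.9 UMIs per cell labelled WT, against 1.79 for Etv5.

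Sftpc and Slc34a2 stood on opposite sides, for the medians over all genes as for those over the factors. With Slc34a2, r was positive for all 10 factors in both libraries, with medians of 0.03 and 0.04 beside 0.01 and 0.02 over all genes. In each library 8 of the 10 lay above that median of all genes, and the share of all genes with each sign was not counted. Under another thinning or choice of cells r turned negative for Gata6, Klf5 and Tfcp2l1 labelled WT. The same held for Elf3 and Elf5 labelled IPKO. With Sftpc, r was negative for 9 of 10 in both, Elf5 being the exception (0.02 and 0.00), with medians of -0.04 and -0.05. When each factor was thinned among the UMIs of genes other than the 8 surfactant genes, r with Sftpc was negative for 6 of 10 labelled WT and 7 of 10 labelled IPKO, and that of Etv5 went from -0.08 and -0.11 to -0.01 and -0.05. The median over all genes with Sftpc was itself -0.03 in each library, and 4 of 10 factors labelled WT and 3 labelled IPKO lay above it. A gene that fills a median of 21.1% and 20.8% of a cell's UMIs necessarily takes share from the rest. Sftpc and Slc34a2 were themselves opposed, with r of -0.23 and -0.26. With Sftpa1, Sftpd and Napsa, the aspartic protease that processes surfactant proteins, the medians over the 10 factors were between -0.02 and 0.00.

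**Figure D4:**
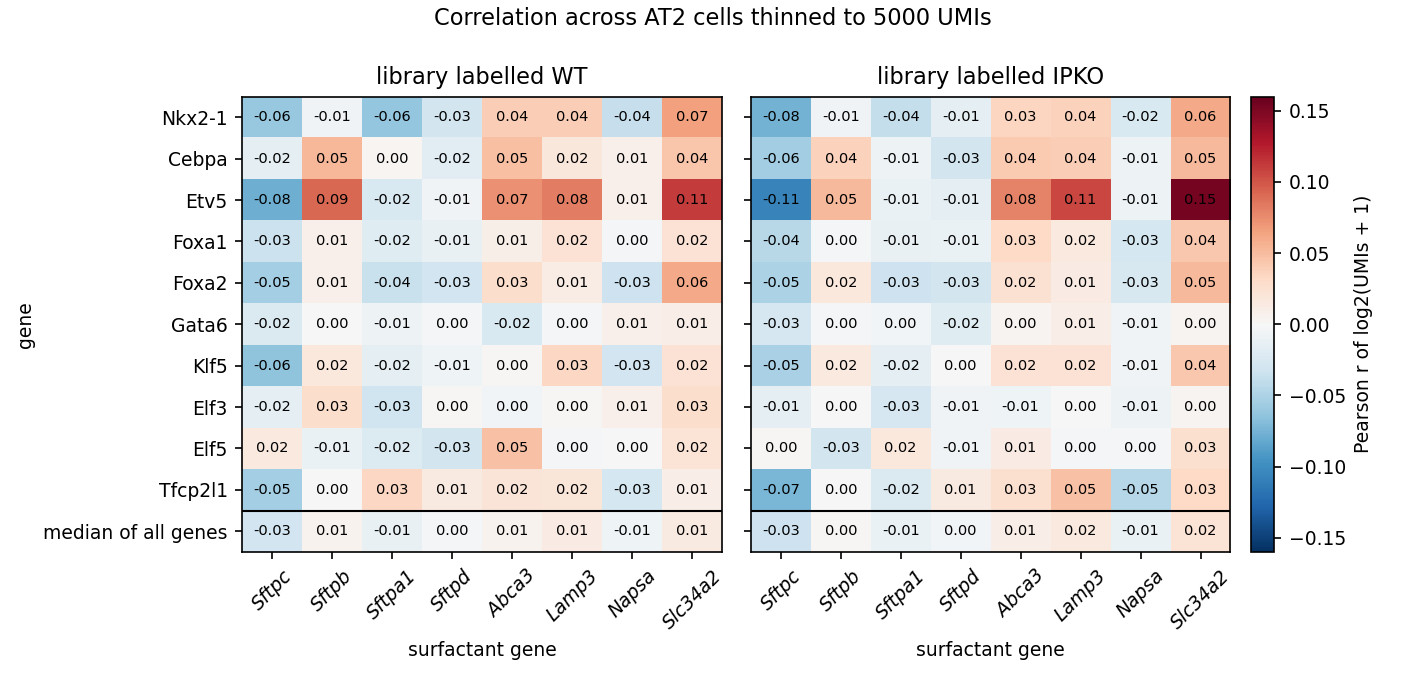
Pearson r of log2(UMIs + 1) between each factor gene (rows) and each of 8 surfactant genes (columns) across AT2 cells thinned to 5000 UMIs, per library, with the median over all genes of at least 20 CPM in the bottom row. Etv5 has the largest values, up to 0.15 with Slc34a2, while the Sftpc column is mostly negative, as is its all-gene median.

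Levels over quartiles of cells show the size of these relations. From the lowest to the highest quartile of Slc34a2 share, a division chosen after the correlations were seen, Etv5 went from 303 to 393 CPM labelled WT and from 278 to 392 CPM labelled IPKO. These are log2 ratios of 0.38 (0.34 to 0.42) and 0.50 (0.46 to 0.53), beside medians of 0.18 and 0.21 over all genes. Of all genes 90% lay below 0.45 and 0.51, so Etv5 was under that limit in both libraries. Over quartiles of Sftpc share, with medians of 16.7% and 25.7% labelled WT, Klf5 went from 53.5 to 35.8 CPM labelled WT and from 55.7 to 39.1 CPM labelled IPKO. Its log2 ratios were -0.58 and -0.51, below the medians of all genes (-0.29 and -0.30). With Sftpc in the total, 90% of all genes lay above -0.60 and -0.62, and none of Klf5, Tfcp2l1 and Foxa1 passed that limit. With Sftpc left out of the total, the ratios of Klf5 were -0.40 and -0.34. Tfcp2l1 was at -0.36 and -0.56, or -0.18 and -0.39 with Sftpc left out. Foxa1 was at -0.32 and -0.51, or -0.14 and -0.34 with it left out. Elf5 was at 0.09 and -0.03, and at 0.27 and 0.14 with it left out, so its direction labelled IPKO depends on that total.

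Keratin and other genes of the transitional state between AT2 and AT1 cells gave another division. Over quartiles of their summed share, Tfcp2l1 went from 112 to 145 CPM labelled WT and from 82.8 to 98.7 CPM labelled IPKO (log2 ratios 0.37 and 0.25). Klf5 had 0.33 and 0.22 and Gata6 0.25 and 0.17, beside medians of 0.09 and 0.07 over all genes. The limit below which 90% of genes lay was 0.35 and 0.29. Of Tfcp2l1, Klf5 and Gata6, only Tfcp2l1 labelled WT passed it. Nkx2-1 was at 0.02 and 0.04, and Foxa1 at 0.02 and 0.03. Over quartiles of UMI total, whose medians in the library labelled IPKO ran from 12422 to 22577 UMIs, no factor passed 0.28 in size there, while Foxa1 reached -0.42 in the library labelled WT.

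Correlations between the factors themselves were small, in counts too sparse to tell a weak relation from none. Over their 45 pairs the median r was 0.01 in each library, and 33 pairs were positive and 2 negative in both. A factor's median r with all genes was itself between -0.0002 and 0.0074 labelled WT and between 0.0012 and 0.0078 labelled IPKO. The share of positive pairs among all genes was not counted. The highest r between factors was that of Cebpa with Etv5 (0.05 and 0.06). Foxa2 with Klf5 (0.04 and 0.04) and Foxa1 with Klf5 (0.035 and 0.032) followed. Among 4078 genes, the genes most like each factor were ranked by the mean r of both libraries. Early-response genes led for Foxa1 (Atf3, Fos, Fosb), Foxa2 (Fos, Jund, Jun), Gata6 (Fosb, Jun, Atf3) and Klf5 (Atf3, Fos, Egr1), with r of 0.08 at most. Slc34a2, Lpcat1, a lysophospholipid acyltransferase gene of surfactant lipid synthesis (0.10 and 0.11), and Lamp3 led for Etv5. Nrp1 led for Cebpa (0.05 and 0.06), and Icam1, a cell adhesion gene, for Elf3 (0.06 and 0.04). For Elf5 they were Bex2, Scp2 and Ces1d, for Tfcp2l1 Cd36, the fatty acid translocase gene (0.09 and 0.07), Malat1 and Slc12a2, and for Nkx2-1 Malat1 (0.09 and 0.10), Slc34a2 and Ddx5.

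Cells of the sort that lacked AT2 levels of Sftpc served as a background. Cells with at least 3 immune markers and Sftpc under 10% of UMIs numbered 36 and 180, with medians of 5812 and 5676 UMIs. Sftpc itself was at 1.52% and 1.85% of its AT2 level in them. Nkx2-1 was at 3.39% and 6.29% of its AT2 level, Etv5 at 7.02% and 5.40%, and Cebpa, which myeloid cells also use, at 35.1% and 23.2%. Elf3 and Elf5 had no UMI in 32 immune-marker cells labelled WT and 164 labelled IPKO when thinned to 3000 UMIs, which allows shares of cells with a UMI of up to 9.38% and 1.83%. AT2 cells thinned to the same 3000 UMIs showed Elf3 in 13.9% and 10.1% and Elf5 in 9.32% and 12.5%, so for Elf5 the few immune-marker cells labelled WT could not show a difference at this depth. Nkx2-1 was seen in 59.9% and 66.5% of AT2 cells at 3000 UMIs, against 3.13% and 8.54% of the immune-marker cells. Etv5 was seen in 64.0% and 62.2% against 6.25% and 3.05%, and Cebpa in 43.5% and 39.3% against 15.6% and 5.49%.

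Gata6 was the exception among stromal cells. In 63 and 59 cells with endothelial markers (medians of 3192 and 3059 UMIs) it stood at 53.3 CPM (27.5 to 93.1) and 86.7 CPM (52.2 to 135), which is 91.2% and 142% of its AT2 level with intervals that include 100%. In 16 and 18 cells with mesenchymal markers it was at 61.7 and 72.9 CPM. Those cells held 81049 and 123428 UMIs in all, so these values rest on few UMIs of Gata6. Foxa1, Foxa2, Klf5, Elf3 and Elf5 had between 0 and 4.56 CPM in the endothelial-marker cells.

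Cells with ciliated markers kept part of the set. These 5 and 14 cells also held club cell genes in large amount (393062 and 126546 CPM summed over 5 genes), so they are described only by the rule that chose them. Foxa2 stood at 133 CPM (92.0 to 186) and 127 CPM (90.6 to 173) there, Foxa1 at 66.4 CPM (38.7 to 106) and 92.0 CPM (61.6 to 132), and Nkx2-1 at 144 and 225 CPM. Cebpa (23.4 and 25.4 CPM), Etv5 (23.4 and 34.9 CPM) and Tfcp2l1 (7.81 and 6.34 CPM) were well below their AT2 levels. In these few cells the forkhead factors were thus not below their AT2 levels, from which Foxa1 labelled WT and Foxa2 labelled IPKO could not be told apart by counting error, while the factors of the mature AT2 state were lower.

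**Figure D5:**
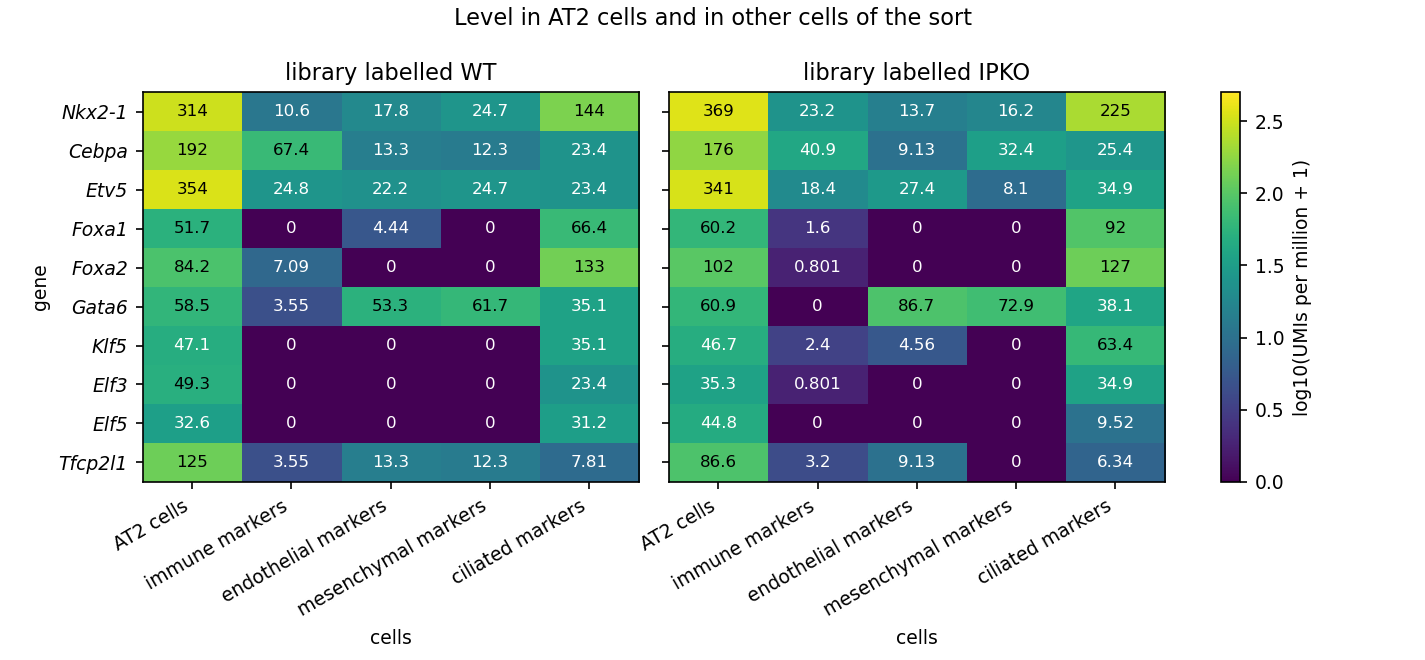
Level of each factor gene (rows, UMIs per 1000000, printed in each field, colour on a log10 scale) in AT2 cells and in cells with immune, endothelial, mesenchymal or ciliated markers, per library. Gata6 is of the order of its AT2 level in endothelial-marker and mesenchymal-marker cells, where few cells and UMIs were counted. Foxa1 and Foxa2 are not below theirs in ciliated-marker cells.

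Of a list of 71 other transcription factors and cofactors of lung epithelium, 70 were found by symbol and 49 reached 5 CPM in AT2 cells. In the library labelled IPKO 9 of these were higher and 7 lower by at least 0.32 on the log2 scale, with a median log2 ratio of 0.02, beside the 8.4% and 4.74% of all genes given above. With median-of-ratios factors 4 were higher and 8 lower, beside 5.27% and 6.79% of all genes. The highest were Sox4, an SRY-related factor (83.0 and 161 CPM, log2 ratio 0.95, 0.92 to 0.99), Id3, an inhibitor of helix-loop-helix factors (10.2 and 18.8 CPM, 0.88, 0.78 to 0.98), and Cebpb, the stress-induced relative of Cebpa (52.8 and 87.3 CPM, 0.72, 0.68 to 0.77). The lowest were Tead4, a partner of YAP (7.43 and 4.25 CPM, -0.81, -0.96 to -0.65), Klf9, a glucocorticoid-responsive factor (161 and 97.3 CPM, -0.73, -0.76 to -0.69), and Klf10 (10.4 and 7.63 CPM, -0.45, -0.57 to -0.33). Cebpa and Cebpb thus stood at different log2 ratios, -0.13 and 0.72, and Klf5 and Klf9 at -0.01 and -0.73. Beside these, 15 of the 17 early-response genes were higher, with a median log2 ratio of 0.91, and their part in the other ratios was not tested beyond the ranges given above.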

How the data were processed

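Raw UMI counts per gene and barcode were deposited by the authors, and per the file headers Cell Ranger 4.0.0 produced them. The submitters' processing notes name the build GRCm38 (mm10), while its gene annotation was not given in the sources used here. Libraries were made with the 10x Genomics 3' v3.1 kit, per the labels' protocols. Counts were summed over AT2 cells and divided by their total (CPM), with exact Poisson, Clopper-Pearson and conditional binomial intervals, in Python 3.11.15 with scipy 1.17.1; TMM factors came from edgeR 4.0.16. A level of 0 was set at a floor of 3 counts. Positions are from GENCODE vM21, in which 99.0% of gene IDs were found. No doublet caller was run; leaving out the highest 8% of UMI totals was an alternative. The genes, lists, thresholds and 34 alternatives were chosen with earlier results of these data known, so the genes' choice supports no result. All 10 genes were named, with the 3 highest and 3 lowest ratios of the other factors and the 3 genes most like each. Ratio and correlation code was tested on simulated data.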

Additional observations from a re-analysis of the deposited data

How the results depend on the processing

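The log2 ratios of Tfcp2l1 (-0.64 to -0.50), Elf3 (-0.54 to -0.47) and Elf5 (0.35 to 0.47) passed 0.32 under each of 14 alternatives of scaling and cell choice, 3 of them added after seeing the data. Gata6 (-0.13 to 0.10) and Klf5 (-0.20 to 0.03) changed sign among them. Without the 25% of cells of highest early-response share, Foxa2 reached 0.33, so that 2 of the factors were counted as higher. The median r with Sftpc was -0.091 labelled IPKO when thinned to 10000 UMIs, and -0.0098 labelled WT when each factor was thinned among the other UMIs. Over all kept cells, which include cells without Sftpc, it was 0.026 labelled WT and 0.059 labelled IPKO, and r of Etv5 with Sftpc was 0.095 and 0.154, all of the opposite sign. Without thinning the median r with Slc34a2 was 0.060 and 0.093. For Etv5 with Slc34a2, r was 0.085 labelled WT and 0.106 labelled IPKO at 3000 UMIs, and 0.176 and 0.197 at 10000 UMIs. Without thinning it was 0.217 and 0.264. The median share of cells with a UMI over the 10 factors was 67.5% labelled WT and 65.8% labelled IPKO at full depth, 29.5% and 30.05% at 5000 UMIs, and 19.0% and 19.6% at 3000 UMIs. No paired analysis was possible because each genotype has 1 library and the labels give no replicate numbers.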

Other observations

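Barcodes over 20% mitochondrial UMIs with at least 500 genes, 268 labelled WT and 260 labelled IPKO, were left out of all comparisons, and their factor levels were examined after the other results were seen. Their median totals were 3006 and 2421 UMIs. The Sftpc limit was not applied to them, and Sftpc filled a median of 2.65% and 2.83% of their UMIs, against 21.1% and 20.8% in AT2 cells. Their endothelial markers summed to 153 and 24.5 CPM, against 13.5 and 18.3 CPM in AT2 cells. Their immune markers summed to 98.9 and 70.7 CPM, against 97.3 and 106 CPM. They may thus include other cell types, and how far this enters the ratios was not tested. Levels of single genes here are per 1000000 UMIs of nuclear-encoded genes, against AT2 cells on the same scale. Malat1, a noncoding RNA that stays in the nucleus, had log2 ratios of 3.13 and 3.35 over AT2 cells, while the median over all genes of at least 20 CPM was -0.09 and -0.01. Nkx2-1 was higher in these barcodes, at 649 against 332 CPM labelled WT and 780 against 385 CPM labelled IPKO (log2 ratios 0.97, 0.82 to 1.11, and 1.02, 0.87 to 1.16). Tfcp2l1 was higher likewise (0.98, 0.75 to 1.20, and 0.90, 0.58 to 1.21). Cebpa was lower (-0.57, -0.89 to -0.27, and -0.62, -1.01 to -0.26), and so was Foxa2 (-0.56, -1.05 to -0.11, and -0.94, -1.53 to -0.41). Nkx2-1 and Tfcp2l1 are also the factors that had Malat1 among the genes most like them across AT2 cells. Gata6, which did not, was at 0.27 (-0.18 to 0.67) labelled WT and 0.81 (0.40 to 1.19) labelled IPKO. Labelled IPKO, Elf3 (0.60, 0.01 to 1.13) and Etv5 (0.24, 0.03 to 0.43) also had intervals above 0, unlike labelled WT. Over all genes 90% lay below 1.21 and 1.34, so none of these factors lay above that limit.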
